A study of Mus musculus with 4 samples.

Results

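The Myc, Max and Mxd network was followed in hematopoietic stem and progenitor cells with and without the homeodomain protein Meis1. Its members were taken by name, as every non-control probe whose gene name on the array was Myc, Mycn, Max, Mxd1, Mxi1, Mxd3, Mxd4 or Mnt. All 8 genes were on the array, with 15 of its 41174 probes, out of 28095 gene names in all. Of these, 14 probes covering all 8 members were bright enough to test, and the remaining Mxd3 probe was not.

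The members are basic helix-loop-helix leucine zipper proteins that act in pairs. Myc and its relative N-Myc, the product of Mycn, pair with Max on the E-box CACGTG and activate genes of ribosome assembly, metabolism and cell division. Mxd1, Mxi1, Mxd3, Mxd4 and Mnt compete for Max and, at the same sites, bring in Sin3 corepressors. In hematopoietic stem cells c-Myc and N-Myc are known to be needed for the balance between self-renewal, survival and differentiation, and Mxd proteins are known from cells leaving the cycle.

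The arrays measured LSK cells (lineage-negative, Sca-1+, c-Kit+), sorted from mouse bone marrow and also labelled KSL. The knockout group, KO, was Mx1-Cre positive Meis1 fl/fl and the control group, WT, was Meis1 fl/fl without Cre, both on C57BL/6J, so that both groups carried the floxed alleles of exon 8, which encodes the homeodomain. Each group had 2 arrays, and each array held RNA of one pool of mice. Cre was driven by the interferon-inducible Mx1 promoter, whose activity is not restricted to blood cells, and was induced in mice of 4 to 8 weeks by 4 injections of 1.5 µg/g poly(I:C). The sources differ on the controls, which are described once as given poly(I:C) and once as sham-treated, so the effects of poly(I:C) and of the deletion cannot be told apart if the latter holds.

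KO and WT arrays of replicate 1 lay on one slide and those of replicate 2 on another, so a difference could be read within each slide. Both KO arrays had the same position on their slide and both WT arrays the next one, so position and genotype cannot be told apart. KO replicate 2 stood apart from the other arrays. Its 75th percentile of signal was 90.1 against 147 to 154, 49.2% of its spots were well above background against 54.7% to 57.4%, and its correlations with the other arrays over tested probes were 0.891 to 0.916 against 0.956 to 0.967 among the others. No spot was saturated. The Meis1 probes were lower in KO on both slides, by 1.70 ± 0.54 (SE) and 1.00 ± 0.43 on the log2 scale, with adjusted p = 0.983 for both by limma. The first, A_52_P26195, was well above background on only 1 KO array, entered the test through WT and gave -0.27 with normexp background correction. Neither probe was placed relative to exon 8 here, so these values do not check the deletion itself. Over all tested probes 0.6% were called lower and 0.136% higher at the study's criteria, and none had an adjusted p under 0.05 (618 had an unadjusted p under 0.05). All 10 LSK and stem cell markers were tested, Kit and Ly6a (Sca-1) among them, with summed scaled signals of 152 to 158 in KO and 132 to 166 in WT.

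RefSeq promoters on GRCm38.p6 were matched for 7 of the 8 members, with Mxi1 having several starts. The 250 bases before each start were searched for CACGTG, which reads the same on both strands, and for the Meis-type hexamer TGACAG, which reads CTGTCA on the other strand. No match of one overlapped a match of the other in the members. CACGTG was found in 6.02% of 32851 mouse promoters over the same 250 bases and TGACAG or its complement in 15.9%. Mycn and Mxd1 are shown because their main probes gave the largest differences below, and Mxd4 and Mnt because they hold CACGTG. Each runs 5′ to 3′ on the strand of the gene and ends at the last base before the start, with matches in capitals.
Mycn, chr12:12941837-12942086, minus strand: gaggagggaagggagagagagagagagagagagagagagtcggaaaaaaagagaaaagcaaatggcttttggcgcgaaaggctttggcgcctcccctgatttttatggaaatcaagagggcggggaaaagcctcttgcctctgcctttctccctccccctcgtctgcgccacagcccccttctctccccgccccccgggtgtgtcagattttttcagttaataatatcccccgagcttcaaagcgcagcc
Mxd1, chr6:86669160-86669409, minus strand: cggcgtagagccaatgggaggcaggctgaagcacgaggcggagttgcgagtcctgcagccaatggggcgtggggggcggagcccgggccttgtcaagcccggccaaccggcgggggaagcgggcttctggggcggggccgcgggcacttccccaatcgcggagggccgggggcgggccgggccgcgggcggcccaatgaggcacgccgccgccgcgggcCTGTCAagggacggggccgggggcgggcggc
Mxd4, chr5:34187711-34187960, minus strand: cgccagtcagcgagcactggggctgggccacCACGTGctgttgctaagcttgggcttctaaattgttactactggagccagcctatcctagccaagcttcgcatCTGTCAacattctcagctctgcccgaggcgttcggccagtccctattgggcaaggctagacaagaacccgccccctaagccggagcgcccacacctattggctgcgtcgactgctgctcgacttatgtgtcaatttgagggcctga
Mnt, chr11:74830674-74830923, plus strand: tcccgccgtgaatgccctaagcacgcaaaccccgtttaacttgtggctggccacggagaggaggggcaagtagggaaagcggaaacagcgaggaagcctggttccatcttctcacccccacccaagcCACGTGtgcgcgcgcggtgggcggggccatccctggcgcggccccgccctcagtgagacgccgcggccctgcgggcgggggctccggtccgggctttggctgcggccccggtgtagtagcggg
The Mycn stretch held neither motif. The Mxd1 stretch held CTGTCA, beginning 31 bases before the start. The Mxd4 stretch held both, with CACGTG beginning 219 and CTGTCA 146 bases before the start. The Mnt stretch held CACGTG, beginning 123 bases before the start. Max held CTGTCA, beginning 137 bases before its start, and the stretches of Mxi1 and Mxd3 held neither. These are matches of letters and were not tied to binding.

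Across the network, Mycn and the repressors Mxd1, Mxi1, Mxd4 and Mnt lay lower in KO, while Myc, Max and the tested probe of the repressor Mxd3 lay slightly higher. No difference passed a test, and under some alternatives given below the signs changed for Myc, Max, Mxd3 and Mnt and for the dimmer probes of Mxd1 and Mxd4. Of the 14 tested probes 9 were lower in KO, including all probes of Mycn, Mxd1, Mxi1, Mxd4 and Mnt, and 5 were higher, including all 3 Myc probes, the Max probe and the tested Mxd3 probe. Mxd1 A_51_P388607 and Mxd4 A_51_P148865, both lower, entered the test only through WT, where they were well above background on both arrays against 1 in KO. Of the 12 probes well above background on all 4 arrays, 7 were lower. The median difference over the 14 tested probes, several of them of the same gene, was -0.33 on the log2 scale. It was 0.08 over all tested probes, of which 43.8% were lower. None of the 14 was called at the study's criteria, against the 0.6% and 0.136% over all probes. None had an unadjusted p under 0.05, and the fold differences ran from 1.13 to 1.72. With the slide as a block again no member was called, against 1.93% of all probes. The 95% intervals of the members reached from -2.34 to 1.37 over the set, so 2 arrays per genotype left differences well beyond the 2-fold limit undetectable for some members.

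**Figure D1:**
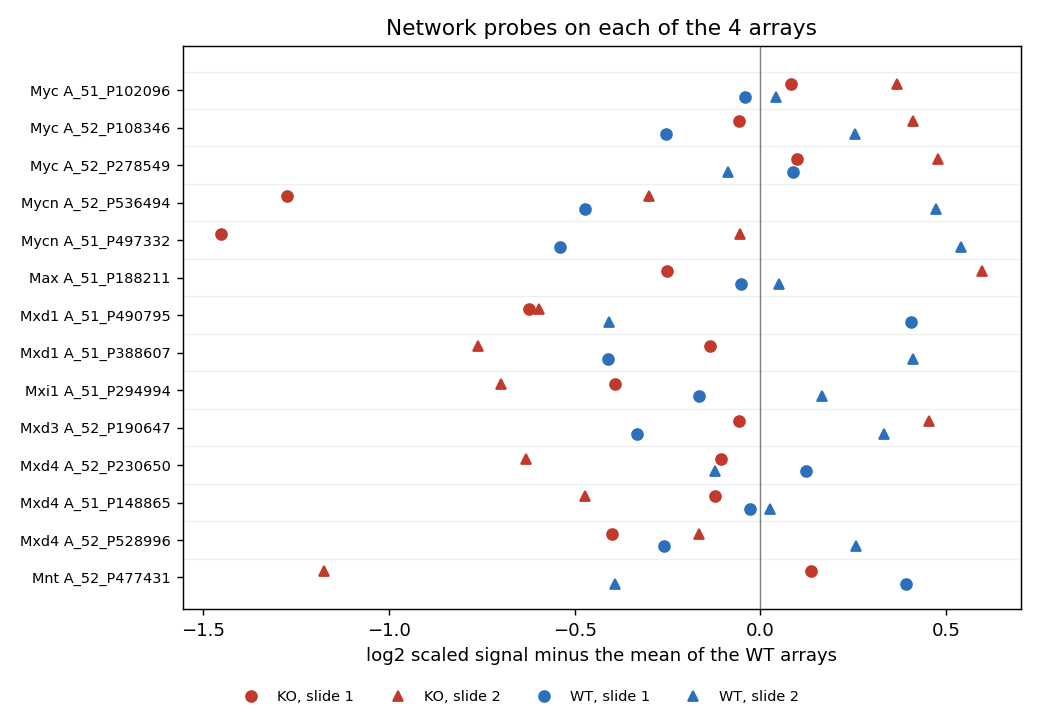
Scaled log2 signal of each of the 14 tested network probes on each array, as the difference from the mean of the WT arrays (x axis, log2). KO arrays are red and WT arrays blue, circles are slide 1 and triangles slide 2, and the zero line is the WT mean. Both Mycn probes lie lower in KO within each slide, while the KO and WT points overlap across slides.

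Mycn had the largest difference among the 14 tested probes. Its main probe, A_52_P536494, lies on chromosome 12 at 12943193 to 12943252 (mm9, minus strand). The scaled log2 signal, that is log2 of signal relative to the 75th percentile of the same array, was 3.89 and 4.86 in KO 1 and 2 and 4.69 and 5.63 in WT 1 and 2. KO 1 was the lowest array and WT 2 the highest, the groups overlapped, and slide 2 was higher than slide 1 in both genotypes. The mean was 4.37 ± 0.69 in KO and 5.16 ± 0.67 in WT (SD, n = 2), a difference of -0.79 ± 0.57 (SE) or 1.72-fold, with a 95% interval of -2.17 to 0.60 and adjusted p = 0.983. Within slides the difference was -0.80 on slide 1 and -0.77 on slide 2. With the slide as a block the interval narrowed to -1.83 to 0.26, with unadjusted p = 0.125 against 0.215 without it, and still included 0.

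The second Mycn probe, A_51_P497332, on chromosome 12 at 12944312 to 12944371, gave the same sign. It read -0.45 and 0.94 in KO and 0.46 and 1.54 in WT, again with the slides apart and KO below WT on each. The difference was -0.75 ± 0.65, at -0.91 on slide 1 and -0.59 on slide 2, with adjusted p = 0.983. Both probes stood on the low side of all tested probes, at the percentiles 10.8 and 11.6 of the differences. Leaving out KO 2 gave -1.27 for the main probe and -1.45 for the second (unadjusted p = 0.0532 and 0.0421, with the lone KO 1 assumed to vary like WT), and leaving out KO 1 gave -0.30 and -0.05. Leaving out WT 2 gave -0.31 and -0.21, so the size rests on KO 1 and WT 2 while the sign did not change.

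Myc itself was measured by 3 probes, which lay within a short stretch of chromosome 15. The main probe, A_51_P102096 (61821516 to 61821576, mm9, plus strand), is printed 10 times on each array, and the SD between its spots was 0.033 to 0.040 on the log2 scale. Its scaled log2 signal was 3.44 and 3.73 in KO and 3.32 and 3.40 in WT. The KO arrays lay just above the WT arrays without overlap, and KO 2 was the highest. The difference was 0.23 ± 0.43 or 1.17-fold, with a 95% interval of -0.81 to 1.26 and adjusted p = 0.983, at 0.13 on slide 1 and 0.33 on slide 2.

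The other Myc probes were likewise higher in KO. A_52_P278549 read 3.17 and 3.55 in KO and 3.16 and 2.98 in WT, a difference of 0.29 ± 0.43, without overlap. A_52_P108346 read 2.03 and 2.50 in KO and 1.84 and 2.35 in WT, a difference of 0.18 ± 0.46, with overlap. Without scaling between arrays the 3 differences became -0.15, -0.09 and -0.20, since that choice moves every probe by -0.38, so the sign of Myc depended on the scaling. Among all tested probes the 3 differences stood at the percentiles 62.0, 67.4 and 57.9, which a shift of every probe cannot change. In the same order they were 0.04, 0.11 and 0.03 with quantile normalization. With normexp background correction they were 0.03, 0.10 and -0.02.

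The ratio of Mycn to Myc signal on one array needs no scaling between arrays. This ratio was chosen after the values of both genes had been seen, and it compares the change of the ratio, not the levels of the probes. The log2 ratio of the main probes was 0.44 and 1.13 in KO and 1.37 and 2.23 in WT. Both KO arrays lay below both WT arrays. The mean was 1.80 ± 0.61 in WT and 0.79 ± 0.49 in KO (SD, n = 2), a difference of -1.01, at -0.93 on slide 1 and -1.10 on slide 2. The two-sided exact permutation test gave p = 0.333, the smallest that 2 arrays against 2 can give. Over all 6 pairs of a Mycn and a Myc probe the difference lay between -0.93 and -1.07. In 2 of them, both with the second Mycn probe, the genotypes overlapped (exact permutation p = 0.667). These pairs reuse the same 2 Mycn and 3 Myc probes and are not separate evidence.

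**Figure D2:**
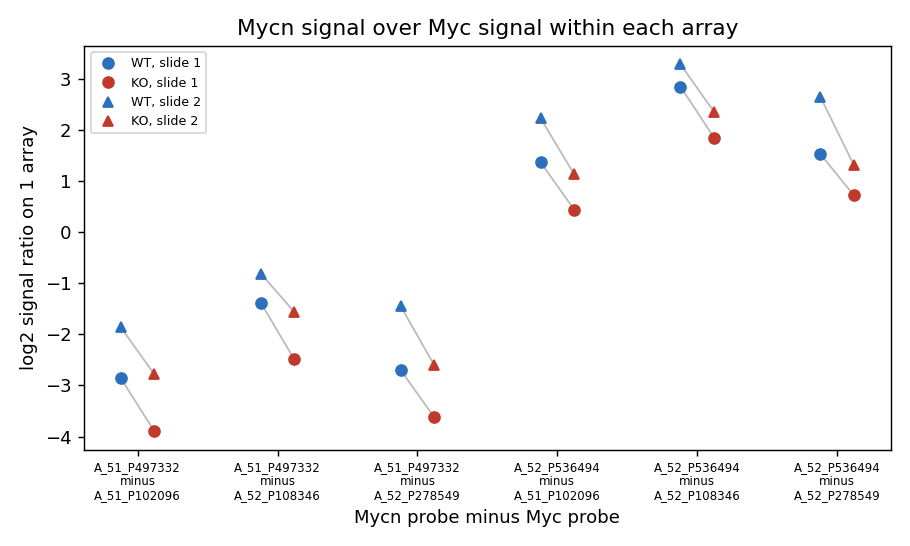
The log2 ratio of Mycn to Myc signal within each array (y axis) for each of the 6 pairs of a Mycn and a Myc probe (x axis). Lines join KO (red) and WT (blue) of the same slide, circles for slide 1 and triangles for slide 2. KO lies below WT on every line, with differences from -0.75 to -1.34, and levels of different pairs are not comparable.

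Among all tested probes with a gene symbol, the array patterns most like that of the Mycn main probe were those of Pebp1, Mccc2 and Msi2, with root mean square differences of 0.046, 0.094 and 0.094 (log2, over the 4 centred values). Within 0.2 of Mycn lay 40 of 19486 probes. The values were not rescaled, so such a count depends on how far a pattern spreads over the arrays. Mycn and these 3 genes were all higher on slide 2 than on slide 1 in both genotypes, so the likeness includes the difference between slides. The nearest to the Myc main probe were Ctnnb1, Mgea5 and Gtf3c2 at 0.0075, 0.013 and 0.017, but 3564 probes lay within 0.2 of this nearly flat pattern, so likeness to Myc singles out little.

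Max, the shared partner without which neither Myc nor the Mxd proteins bind DNA, was measured by A_51_P188211 on chromosome 12 (78038283 to 78038342, mm9). The scaled log2 signal was 5.41 and 6.26 in KO and 5.61 and 5.71 in WT. KO 2 was the highest array and KO 1 the lowest, with both WT arrays between them. The difference was 0.17 ± 0.48 (adjusted p = 0.986), at -0.20 on slide 1 and 0.55 on slide 2. It turned negative under quantile normalization (-0.14), without scaling (-0.20), with normexp background correction (-0.06) and without KO 2 (-0.25), so no direction could be given for Max.

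Of the Max-binding repressors, Mxd1, Mxi1, Mxd4 and Mnt were lower on average in KO and Mxd3 was higher by its tested probe. Mxd1, known to rise as myeloid cells differentiate, was read by A_51_P490795 (chromosome 6, 86597190 to 86597249, mm9) at 0.74 and 0.77 in KO and 1.77 and 0.96 in WT. The KO arrays were nearly equal and below both WT arrays, and WT 1 was the highest. The difference was -0.61 ± 0.48 or 1.53-fold, with a 95% interval of -1.77 to 0.55 and adjusted p = 0.983, at -1.03 on slide 1 and -0.19 on slide 2. Most of it therefore lay on slide 1, and without WT 1 it was -0.20. The second Mxd1 probe, A_51_P388607, was dim and well above background on only 1 KO array. It read -2.50 and -3.13 in KO and -2.78 and -1.96 in WT, a difference of -0.45 ± 0.51 with opposite signs on the slides (0.28 and -1.17), and it turned to 0.09 with normexp correction.

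Mxi1, also called Mxd2, had 1 probe, A_51_P294994, on chromosome 19 (53446996 to 53447055, mm9). The scaled log2 signal was -0.40 and -0.71 in KO and -0.17 and 0.16 in WT. Both KO arrays lay below both WT arrays. The difference was -0.54 ± 0.44 or 1.46-fold, with a 95% interval of -1.60 to 0.52 and adjusted p = 0.983, at -0.22 on slide 1 and -0.86 on slide 2. It remained below 0 in all 15 alternatives run, from -0.92 to -0.32. Those that change only the test or the filter leave the estimate as it was and could not change its sign.

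Mxd4 was lower in KO by all 3 of its probes, each by little. The main probe, A_52_P230650 (chromosome 5, 34516836 to 34516895, mm9), read -0.99 and -1.51 in KO and -0.76 and -1.01 in WT, so KO 2 was the lowest and the groups overlapped. Its difference was -0.37 ± 0.45, and those of A_52_P528996 and A_51_P148865 were -0.28 ± 0.45 and -0.30 ± 0.43. Each was below 0 on both slides. With normexp correction they became -0.05, 0.06 and 0.24, so the sign of 2 of the 3 depended on the background correction. A_51_P148865 was well above background on only 1 KO array.

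Mxd3, the member of the family known from dividing cells, had 2 probes, of which 1 could be tested. A_52_P190647 read -2.68 and -2.17 in KO and -2.96 and -2.29 in WT, a difference of 0.20 ± 0.48 (adjusted p = 0.983) that was above 0 on both slides. It turned negative without scaling (-0.18), without KO 2 (-0.06) and without WT 1 (-0.13). A_51_P315530 was not well above background on either KO array and was so on 1 WT array, WT 2. It read -4.97 and -4.99 in KO and -4.23 and -2.70 in WT, and it was not tested. With KO raised to the lowest value well above background, KO was 1.17-fold lower. This is not a firm bound, since WT 1 was not well above background either. Both probes lie on chromosome 13 close to each other (55427000 to 55427059 and 55427253 to 55427426, mm9). For the second, WT 1 also read above both KO arrays, although neither genotype was well above background on slide 1.

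Mnt, the most broadly expressed of the repressors, was read by A_52_P477431 on chromosome 11 (74658915 to 74658974, mm9, plus strand). The scaled log2 signal was 1.77 and 0.46 in KO and 2.03 and 1.25 in WT. KO 2 was by far the lowest array, slide 2 was lower in both genotypes, and the groups overlapped. The difference was -0.52 ± 0.60 or 1.43-fold, with a 95% interval of -1.98 to 0.95 and adjusted p = 0.983, at -0.25 on slide 1 and -0.78 on slide 2. Without KO 2 it was 0.14.

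**Figure D3:**
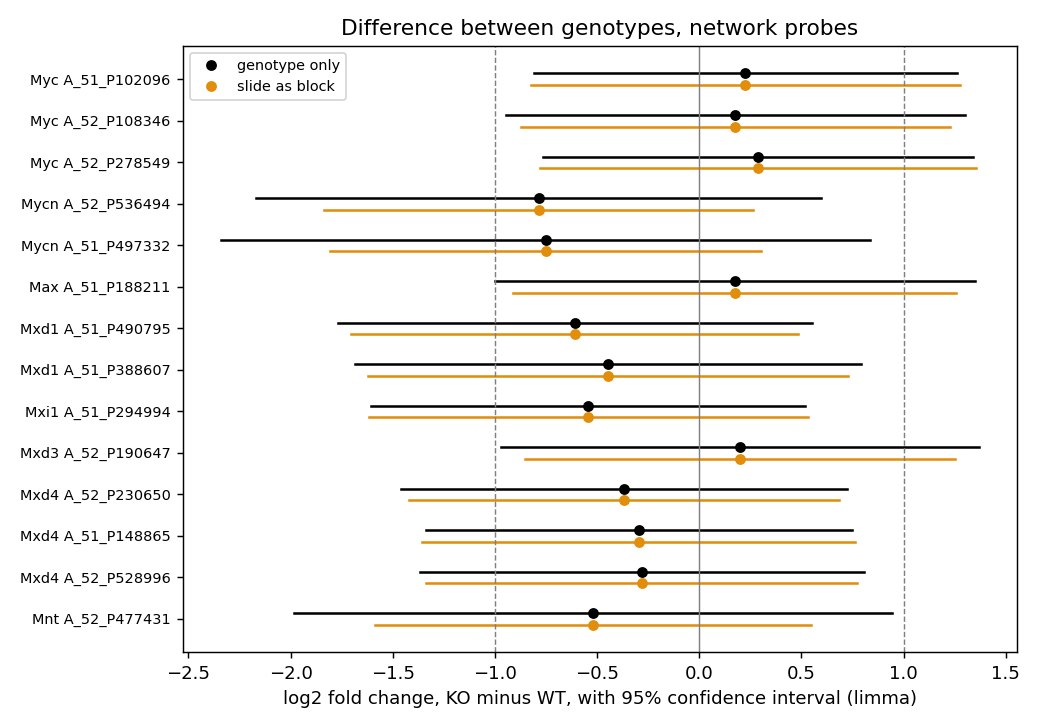
Difference between genotypes for each tested network probe (x axis, log2 fold change, KO minus WT), with 95% confidence intervals from limma without (black) and with (orange) the slide as a block. Dashed lines mark the 2-fold limit of the study's criteria. Every interval includes 0, and the intervals of Mycn and Mnt shorten most with the block.

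Arrays of the genotypes did not overlap for 3 member probes on the lower side (Mxd1 A_51_P490795, Mxd4 A_51_P148865 and Mxi1) and for 2 on the higher side (Myc A_51_P102096 and A_52_P278549), each out of 14. The Mxd4 probe among them is the one that entered the test only through WT. Over all tested probes this was so for 10.8% on the lower and 16% on the higher side. Within slides, 8 member probes were lower on both slides and 4 were higher on both, beside 20.9% and 30.3% of all tested probes. The 8 include every Mxd4 and Mycn probe and the 4 every Myc probe, so probes of one gene are counted more than once. The Mxd4 probe that entered the test only through WT is also among the 8.

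**Figure D4:**
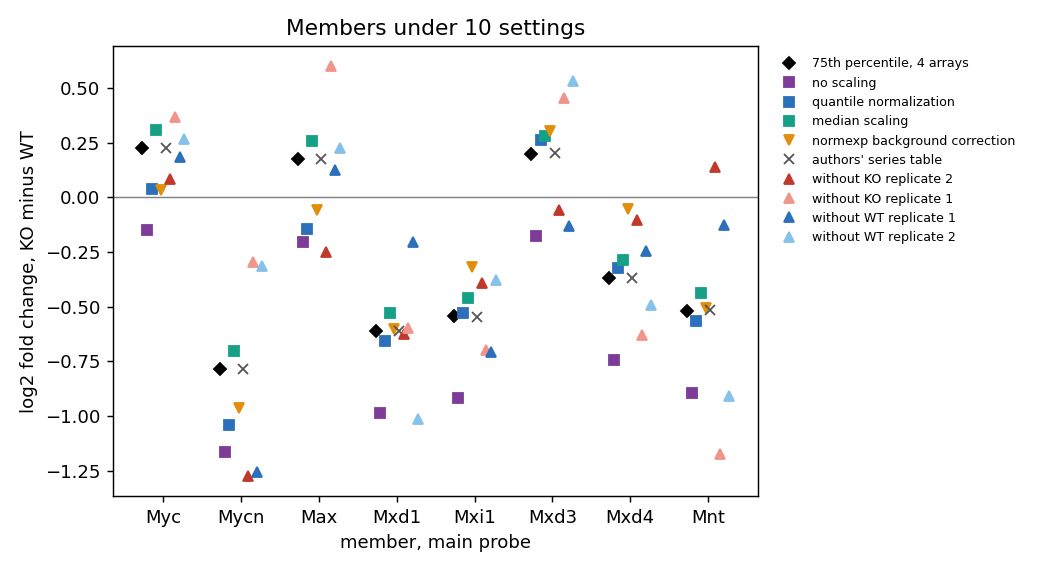
Difference between genotypes for the main probe of each member (y axis, log2 fold change, KO minus WT) under 10 settings: the reported one (black diamond), other scalings (squares), another background correction (inverted triangle), the authors' table (cross) and each array left out (triangles). Mycn, Mxd1, Mxi1 and Mxd4 stay below 0 in each setting drawn, while Myc, Max, Mxd3 and Mnt cross 0.

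The other genes of the pathway were taken from lists of textbook knowledge, each gene by its main probe. No dimer partner, cofactor, stability regulator, Myc target or replication gene tested was called. Among dimer partners outside the 8 members, which link the network to Mlx and Mga, all 4 tested genes of 5 on the array were lower in KO, with a median of -0.40. One of them, Mlxip (-1.61 ± 1.19, named after its values were seen), entered the test only through WT, and over the others, well above background on all 4 arrays, the median was -0.15. Leaving out KO 1, KO 2 or WT 1, or using normexp correction, left 2 of the 4 higher. Median scaling or leaving out WT 2 left 1 higher. Mycl1, the L-Myc gene, was at -0.65 ± 0.79 and Mlx at -0.15 ± 0.46. Among cofactors and corepressors 6 of 14 were higher and 8 lower, with a median of -0.31, at 0.13 on slide 1 and -0.72 on slide 2. The highest were Sin3b (0.69 ± 0.57), a scaffold of Mxd repression, and Ruvbl2 (0.47 ± 0.45), a helicase of Myc complexes. The acetyltransferase Kat2a was at -1.17 ± 0.63, at -0.28 on slide 1 and -2.07 on slide 2, and both KO arrays lay below both WT arrays. Without KO 2, 10 of the 14 were higher.

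Of 9 tested regulators of Myc protein stability, 3 were higher and 6 lower, with a median of -0.19. The median was 0.011 without KO 1 and 0.0009 without WT 2, each with 5 of 9 higher. Aurka, a kinase known to stabilise N-Myc, was at 0.70 ± 0.43 and the deubiquitinase Usp28 at 0.61 ± 0.50. The ubiquitin ligase Huwe1 was at -0.69 ± 0.66 and the phosphatase subunit Ppp2r5a at -0.40 ± 0.43. Aurka read 4.48 and 4.80 in KO and 3.92 and 3.96 in WT, so both KO arrays lay above both WT arrays.

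Of 42 genes known to be raised by Myc, 34 were higher in KO and 8 lower, mainly on slide 2, with a median of 0.29 beside 0.08 over all tested probes, and 20 were higher on both slides. The median was 0.01 on slide 1 and 0.55 on slide 2, and without KO 2 only 18 of 42 were higher, with a median of -0.07. The count was 24 (median 0.11) with quantile normalization and 27 (0.11) with normexp correction. Without scaling, which moves every probe by -0.38, it was 17 (median -0.09). The highest were Ppat (0.79 ± 0.82), the first enzyme of purine synthesis, and Mat2a (0.79 ± 0.65), which makes S-adenosylmethionine. The lowest were the nucleolar proteins Nolc1 (-1.11 ± 0.90) and Ncl (-0.78 ± 0.68). Ppat read 2.05 and 4.30 in KO and 1.88 and 2.89 in WT, and Nolc1 read 0.59 and -2.19 in KO and 0.13 and 0.49 in WT. KO 2 was thus the extreme array for both, in opposite directions.

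Of 8 genes on the array known to be lowered by Myc, 6 were tested and 5 of these were below WT, with a median of -0.39. The median was -0.090 without WT 1 and -0.15 without KO 2, against -0.57 without KO 1. Cdkn1a, which encodes the cell cycle inhibitor p21, was at -1.03 ± 0.90, with 1.92 and 0.14 in KO and 3.14 and 0.97 in WT. It was lower on each slide, at -1.23 and -0.83, and slide 2 was lower in both genotypes. Gadd45g was at -0.70 ± 0.55 and Gadd45a at 0.14 ± 0.45. Genes of DNA replication and cycling were higher in 12 of 15 cases, with a median of 0.36, at 0.23 on slide 1 and 0.61 on slide 2. Ccnb1 (0.88 ± 0.57) and Tyms (0.81 ± 0.44) were the highest and Mki67 (-0.65 ± 1.21) and Cdc6 (-0.33 ± 0.47) the lowest. Without KO 2 the median of this list was 0.04, with 11 of 15 higher. Without scaling, under the same shift of every probe, 7 of 15 were higher. The median was 0.12 with quantile normalization (10 of 15 higher) and 0.17 with normexp correction (12 of 15). Mki67 read 4.06 and 0.40 in KO and 3.65 and 2.09 in WT.

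**Figure D5:**
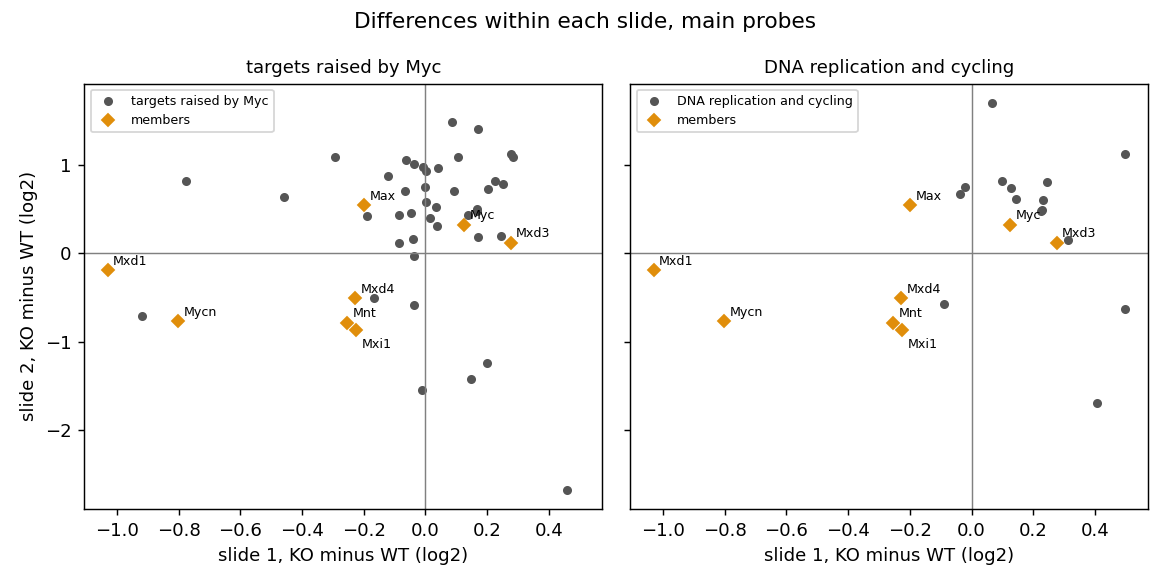
Differences between KO and WT within slide 1 (x axis) and within slide 2 (y axis), in log2 units, for main probes of genes raised by Myc (left, grey) and of replication and cycling genes (right, grey), with the 8 members in orange in both panels. Most grey points spread along the slide 2 axis near 0 on slide 1, while Mycn, Mxd1, Mxi1, Mxd4 and Mnt lie below 0 on both slides.

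Markers of other lineages and of the stem cell pool were read beside the network. In LSK and stem cell markers 5 of 10 were higher and 5 lower. Flt3, a receptor of multipotent progenitors, was called lower (-3.33 ± 0.80, adjusted p = 0.983), at -2.29 and -4.70 in KO and -0.17 and -0.16 in WT. It was well above background on only 1 KO array and entered the test through WT, so its size is uncertain. Cd48 was at 0.85 ± 0.53, Cd34 at 0.24 ± 0.47, Tek at -0.56 ± 0.68 and Procr at -0.34 ± 0.45. Erythroid markers had summed scaled signals of 100 to 249 in KO and 23.7 to 87.5 in WT, without overlap, with 3 of the 6 tested genes higher and 3 lower. Hbb-b1 made up most of the sum, with scaled log2 signals of 6.58 and 7.95 in KO and 6.33 and 4.48 in WT. Rhag was called higher (1.72 ± 0.46), Hbb-b1 was at 1.86 ± 0.78, Klf1 at -0.61 ± 0.54 and Hba-a1 at -0.28 ± 1.81 (6 of 8 on the array were tested). Granulocyte and monocyte markers summed to 119 to 172 in KO and 61.5 to 184 in WT, with 8 of 10 tested, Elane called lower (-1.58 ± 0.42), Ctsg at 0.92 ± 0.59, Mpo at 0.56 ± 0.53 and S100a9 at -0.26 ± 1.68. For B lineage markers 6 of 11 were tested, summing to 16.8 to 33.5 in KO and 20.5 to 44.1 in WT, with Sdc1 at -1.70 ± 0.73 and Igj at -0.93 ± 0.98, and Pax5, Ebf1 and Cd79a not bright enough to test. For T lineage markers 3 of 6 were tested, and all 3 were dim, summing to 0.252 to 0.530 in KO and 0.777 to 0.843 in WT, with Cd3e, Cd3d and Cd4 not bright enough to test. The 3 T lineage genes entered the test only through WT and were each well above background on 1 KO array, so the filter favoured lower KO values. The part of such differences in those of Mycn, Mxd1, Mxi1 and the other members was not tested, and in sorted bulk RNA fewer cells of a type and less RNA per cell cannot be told apart.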

How the data were processed

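Total RNA of sorted LSK cells was amplified, labelled with Cy3 and hybridised, one array per pool, to 1-colour Agilent whole mouse genome arrays. Per the file headers, the authors extracted the arrays with Agilent Feature Extraction 9.5.3.1, while the submitters' processing notes name version 9.1. The deposited intensity values were background-subtracted and detrended within each array and not scaled between arrays, and the deposited series table holds the same intensity values to fewer digits. Deposited flags marked outlier, saturated and well-above-background spots, the other columns used.

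Log2 signal minus each array's 75th percentile was computed without outlier spots and averaged over the spots of a probe. A probe was tested if one genotype at least had it well above background on each of its arrays (22007 of 41174). limma 3.58.1 in R 4.3.3 was fitted with genotype as the only term and Benjamini-Hochberg adjustment over all tested probes. A call needed the criteria of the study's methods, unadjusted p under 0.01 and over 2-fold. A member's main probe had its highest mean signal. The fits were tested on simulated data. The 2 arrays per genotype limit the precision.

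Arrays of one replicate number shared a slide, per the file headers, and their deviations from the genotype means correlated at 0.27, so the slide was also fitted as a block. Alternatives covered scaling, background correction, the filter, outlier spots, the series table, the test and each array left out. Of each list, called genes and the 2 highest and 2 lowest differences among probes well above background on all 4 arrays were named, and for Mycn and Myc the 3 probes with the closest centred values. A gene that this rule names is not reported here. Members and lists were chosen with earlier results of these data known. All 8 members matched RefSeq by symbol.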

Additional observations from a re-analysis of the deposited data

How the results depend on the processing

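No network probe was called under any of the 15 alternatives run, and none had an unadjusted p under 0.05 except the dim Mxd3 probe A_51_P315530 where the filter on dim probes was dropped and the second Mycn probe without KO 2. Mycn, Mxi1 and the main probes of Mxd1 and Mxd4 kept their sign in all alternatives. Alternatives that change only the test or the filter leave an estimate as it was, so they could not change a sign. The cause of the changes below was not tested. Without scaling between arrays Myc became -0.15, -0.089 (A_52_P278549) and -0.20 (A_52_P108346), Max -0.20 and Mxd3 -0.18. Quantile normalization gave -0.14 for Max. With normexp correction Max was -0.059, Mxd1 A_51_P388607 0.093, Mxd4 A_51_P148865 0.24 and A_52_P528996 0.061, and Myc A_52_P108346 -0.024. Leaving out 1 array moved Myc between 0.084 and 0.37, Myc A_52_P108346 between -0.078 and 0.43, Mycn between -1.27 and -0.30, Max between -0.25 and 0.60, Mxd1 between -1.02 and -0.20, Mxi1 between -0.71 and -0.38, Mxd3 between -0.13 and 0.53, Mxd4 between -0.63 and -0.11, Mxd4 A_52_P528996 between -0.54 and -0.023 and Mnt between -1.17 and 0.14.

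Over all probes, 132 were called lower and 30 higher. With the slide as replicate block the counts were 297 and 127 (34 with adjusted p under 0.05), and this pairing changed no call of a member. They were 45 and 2 with normexp correction, 44 and 10 for probes well above background on all 4 arrays, 23 and 7 with the methods' t-test, 85 and 16 with an intensity trend, 14 higher without scaling and 101 higher without the filter on dim probes. Leaving out 1 array gave 60 to 1734 lower and 34 to 516 higher, the most without KO 1, where the lone KO array was assumed to vary like the others.

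Of the list medians, dimer partners gave -0.32 with median scaling, -0.78 without scaling, 0.0067 with normexp correction and -0.15 for probes well above background on all 4 arrays. Stability regulators gave -0.11, -0.57 and -0.070 under the first 3 of these, and genes lowered by Myc -0.31, -0.77 and -0.31, and -0.48 with quantile normalization. Without scaling, which moves every probe by -0.38, replication genes gave -0.014 and genes raised by Myc -0.091. Leaving out 1 array moved these medians between -0.64 and -0.087, -0.23 and 0.011, -0.57 and -0.090, 0.042 and 0.72, and -0.066 and 0.60, in that order. The ratio of Mycn to Myc was added after seeing the data, and leaving out 1 array moved its difference between -1.44 and -0.58. Signal over background limits Mxd3 and the dimmer Mxd1 and Mxd4 probes, and 2 arrays per genotype limit every member.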
